A study of Homo sapiens with 12 samples.

Results

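The mRNAs of the translation initiation and elongation factors were followed through NOX4 silencing and hypoxia in BCPAP cells, an established line from a human papillary thyroid cancer. The factors were taken by name: protein-coding genes of the table whose symbol begins with EEF, or with EIF and a digit, leaving out the eIF2 kinases (EIF2AK), the methyltransferases of the elongation factors (KMT) and genes of the Y chromosome. The rule gave 61 of the 58735 genes in the table, from 72 name matches before the exclusions, and used no measured value. Cells had been transfected with a scrambled siRNA (siControl) or with an siRNA against NOX4 (siNOX4) and were then kept at 20% oxygen (normoxia) or 1% oxygen (hypoxia). Each of the 4 groups had 3 libraries of total RNA, described by the submitters as biological replicates from separate transfections. All groups share the cell line and a transfection, so no untransfected cells stand beside them, and silencing was a knockdown, not a deletion.

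Translation initiation assembles a ribosome at a start codon. The initiator tRNA is brought to the small ribosomal subunit by eIF2 with bound GTP, eIF2B recharges eIF2, eIF3 serves as a scaffold on the small subunit, and the eIF4F complex binds the cap and unwinds the leader. The eIF4E-binding proteins keep the cap-binding protein out of eIF4F when they are not phosphorylated, and phosphorylation of eIF2 turns it into an inhibitor of eIF2B. Elongation then rests on eEF1A, which delivers the charged tRNAs, and eEF2, which moves the ribosome along the mRNA. Protein synthesis is among the largest consumers of energy in a cell, and both the eIF2 kinases and the 4E-binding proteins are textbook brakes on it under hypoxia. The values reported here are mRNA levels and say nothing of phosphorylation or of the proteins.

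Many mRNAs of the translation machinery begin with a C followed by a run of pyrimidines, the terminal oligopyrimidine (TOP) tract, through which mTORC1 signalling is known to control their translation. The starts of the factors are shown because the factors with such a tract moved more uniformly in hypoxia than those without one, as given further on. RefSeq starts (GRCh38.p14) were matched by symbol for 51 of the 61 factors, and a tract was counted where a C stood at the annotated start and at least 4 further C or T followed without a break, on the strand of the gene. Such a tract stood at an annotated start of 13 factors: EEF1A1, EEF1B2, EEF2, EIF2A, EIF2D, EIF2S3, EIF2S3B, EIF3D, EIF3F, EIF3K, EIF3M, EIF4A2 and EIF4B. EEF1B2 and EIF2S3B also have an annotated start without it. The tract stood at 4.07% of the 35116 annotated starts in RefSeq. Each window printed here has 30 bases of the gene's strand, 10 before the start and 20 from it, and capitals mark the tract.
EEF1A1 (chr6:73521013-73521042, minus strand): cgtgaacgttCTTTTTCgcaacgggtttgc
EEF2 (chr19:3985444-3985473, minus strand): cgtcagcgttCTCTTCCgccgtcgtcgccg
EEF1B2 (chr2:206159885-206159914, plus strand): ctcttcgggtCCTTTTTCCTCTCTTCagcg
EIF2S3 (chrX:24054946-24054975, plus strand): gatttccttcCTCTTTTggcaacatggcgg
EIF2D (chr1:206612446-206612475, minus strand): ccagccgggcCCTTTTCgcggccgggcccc
EIF3F (chr11:7987327-7987356, plus strand): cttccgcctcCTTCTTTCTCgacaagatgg
EIF3M (chr11:32583821-32583850, plus strand): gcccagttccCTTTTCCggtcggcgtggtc
EIF4A2 (chr3:186783567-186783596, plus strand): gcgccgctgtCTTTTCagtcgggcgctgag
EIF4B (chr12:53006446-53006475, plus strand): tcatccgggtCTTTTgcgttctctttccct
The windows of 5 factors that rose in hypoxia follow for contrast, and none of them holds a tract at the start.
EIF1AD (chr11:66002138-66002167, minus strand): cagcgccggaagtacggttttcggagggat
EIF1AX (chrX:20141819-20141848, minus strand): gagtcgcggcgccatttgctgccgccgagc
EIF3B (chr7:2354817-2354846, plus strand): tcgcacgcacatggctgggctgtagccgtc
EIF3J (chr15:44537137-44537166, plus strand): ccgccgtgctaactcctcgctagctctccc
EIF4A3 (chr17:80147109-80147138, minus strand): cggcagcggcacagcgaggtcggcagcggc
The tract's absence does not mark the rising factors, since 9 and 10 of the 35 factors without one fell with siControl and siNOX4. The windows of 3 factors that fell in both comparisons and have no tract at the start show this.
EIF1 (chr17:41688875-41688904, plus strand): ccgcccctctgccccagtcactgagccgcc
EIF2B5 (chr3:184135348-184135377, plus strand): cagcttccttgcggaagtggtgaccgtgag
EIF3I (chr1:32222397-32222426, plus strand): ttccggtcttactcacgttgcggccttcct

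Total counts per library ran from 16559386 to 21282835. NOX4 itself was counted 6 to 13 times per library with siControl and 1 to 5 times with siNOX4 in normoxia, and 8 to 17 against 3 to 4 times in hypoxia, with no overlap at either oxygen level but no adjusted p under 0.05 (0.0826 and 1.00). The siControl normoxia libraries stood apart from each other: their biological coefficient of variation was 31.7%, against 5.33% to 8.56% in the other groups, and replicates 1 and 3 differed from replicate 2. Results that rest on this group are therefore also given without replicates 1 and 3, which leaves 1 siControl normoxia library and assumes that it varied like the other groups. The thyroid markers PAX8, NKX2-1, FOXE1 and HHEX were present in all libraries, while TG, TSHR and SLC5A5 did not pass 0.318 CPM (counts relative to the TMM-scaled library total). Of the epithelial markers, KRT8 (171 to 441 CPM) and KRT18 (169 to 281 CPM) were high, EPCAM was low (2.36 to 6.42 CPM), and KRT19 and CDH1 did not pass 0.363 CPM. PAX8 stood at 1735, 533 and 1639.7 CPM in siControl normoxia replicates 1, 2 and 3 and at 382 to 551 CPM in the other groups. The leukocyte marker CD14 stood at 7.14, 0.804 and 5.97 CPM in the same libraries and at 0.932 to 4.23 CPM elsewhere. The part of these differences in the results was not tested.

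The factors held 3.20 ± 0.0727% of all counts in siNOX4 normoxia and 2.83 ± 0.239% in siControl normoxia, and less in hypoxia, 2.38 ± 0.0521% with siControl and 2.49 ± 0.0974% with siNOX4 (mean ± SD, n = 3). EEF1A1 alone held 1.49 ± 0.044% in siNOX4 normoxia, 1.29 ± 0.111% in siControl normoxia, 0.905 ± 0.0393% in siControl hypoxia and 0.964 ± 0.0709% in siNOX4 hypoxia. The share of the other factors together was 1.71 ± 0.0289%, 1.54 ± 0.131%, 1.47 ± 0.0149% and 1.53 ± 0.03% in that order. In bulk RNA, fewer cells of a type and less RNA per cell cannot be told apart.

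**Figure D1:**
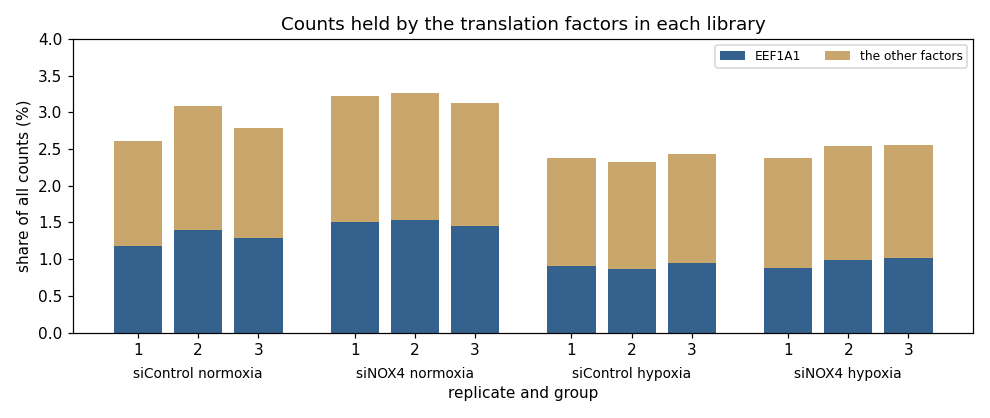
Share of all counts (%) held by EEF1A1 (blue) and by the other factors together (tan), stacked from 0, in each of the 12 libraries. The 6 hypoxia libraries lie between 2.32% and 2.55%, below the 6 normoxia libraries, which lie between 2.61% and 3.27%.

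Of the 61 factors, 58 passed the filter on low counts and were tested. EEF1G, a subunit of the exchange factor of eEF1A, and the readthrough gene EEF1E1-BLOC1S5 were listed at 0 counts in all 12 libraries, and EIF4E1B, a cap-binding protein known from oocytes, had 1 count. For EEF1G, 99.93% of the exonic bases were shared on the same strand with the annotated gene AP002990.1, which itself had 141 counts over all libraries, so its 0 does not give its level. A count of 0 allows up to 3 counts, which is 0.141 to 0.181 CPM in these libraries (counting error only). Some values are less certain because the sources used here do not say how reads that match several genes were counted. EIF4A1 shares 48.59% of its exonic bases with neighbours on the same strand and its named pseudogenes had 32.7% of its own count, EIF3L shares 41.13% on the same strand, EIF4EBP3 73.37%, and EIF3C with EIF3CL, EIF5A with EIF5AL1, and EIF2S3 with EIF2S3B are near copies. Pseudogenes named after EIF4E and EIF1AX held 14.6% and 12.9% of the count of the gene, those of EEF1A1 3.48%.

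Hypoxia against normoxia asks how the low-oxygen culture changed these mRNAs. Calls throughout are Benjamini-Hochberg adjusted p under 0.05 over the 17277 genes tested with edgeR's quasi-likelihood test. With siControl, 12 factors rose and 21 fell, 56.9% of those tested, against 53.3% of all genes (25.7% called higher and 27.6% lower). With siNOX4, 12 rose and 27 fell, 67.2% of those tested, against 56.6% of all genes (28.8% higher and 27.8% lower). The median log2 fold change of the factors was −0.13 with siControl and −0.24 with siNOX4, where that of all genes was −0.01 and 0.03. Without siControl normoxia replicates 1 and 3, the siControl calls were 14 higher and 27 lower with a median of −0.27, beside 27.9% and 28.3% of all genes, and the siNOX4 calls were 13 higher and 32 lower, beside 35.6% and 34.3%. Falls were therefore a larger share of the factors than of all genes with either siRNA, and the share of rises was lower. Groups did not overlap for 36 factors with siControl and 46 with siNOX4, against 56.9% and 71.3% of all genes. A called change of at least 2-fold was found for 3 factors with siControl, against 23.2% of all genes, and for 9 with siNOX4, against 25.8%. Marker lists moved with oxygen too: the summed epithelial list (5 markers) stood at 458 to 726 CPM in the normoxia libraries and 344 to 431 CPM in the hypoxia libraries, and the fibroblast list (8 markers) at 89.3 to 118 CPM and 72.3 to 81.9 CPM. KRT8 and KRT18 made up nearly all of the epithelial sum. EPCAM went the other way, from 2.36 to 3.59 CPM in normoxia to 3.84 to 6.42 CPM in hypoxia without overlap, and CDH1 was at 0 in all normoxia libraries. THY1 (64.1 to 88.1 CPM over all libraries) made up most of the fibroblast sum. COL3A1 stood at 10.6 and 11.4 CPM in siControl normoxia replicates 1 and 3 and at no more than 0.266 CPM elsewhere. The part of these markers in the result was not tested.

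In both comparisons, which share no library, 8 factors rose (EEF1D, EEFSEC, EIF1AD, EIF1AX, EIF3B, EIF3J, EIF4A3, EIF4EBP1) and 19 fell (EEF1A1, EEF1E1, EIF1, EIF1B, EIF2A, EIF2B2, EIF2B5, EIF2D, EIF3A, EIF3C, EIF3E, EIF3F, EIF3G, EIF3H, EIF3I, EIF3L, EIF3M, EIF4A2, EIF4B). None was called in opposite directions, and 13 were called in neither. Of all 17277 genes tested, 3337 rose in both, 3431 fell in both and 5074 were called in neither. Opposite calls were rare among all genes too: 6 fell with siControl and rose with siNOX4, and 3 did the reverse. A further 4 factors rose and 2 fell with siControl without a call with siNOX4, beside 1098 and 1329 of all genes. With siNOX4, 4 rose and 8 fell without a call with siControl, beside 1627 and 1372 of all genes. No factor passed the test of the difference between the responses, as given further on. Against siControl normoxia replicate 2 alone, with replicates 1 and 3 left out, 9 of the 58 factors changed the sign of their siControl value, 13 gained a call and 5 lost one, while with siNOX4 the sign of 0 changed, 6 gained a call and 0 lost one. The lost siControl calls were EIF2S1, EIF4G3, EIF4H, EIF5A and EIF6. Leaving out each library in turn, 24 of the 33 siControl calls and 32 of the 39 siNOX4 calls held in every fit. The calls lost in at least 1 fit were EEF1D, EIF1B, EIF2D, EIF2S1, EIF3F, EIF4G3, EIF4H, EIF5A and EIF6 with siControl, and EEF1A2, EIF2B3, EIF3CL, EIF3D, EIF4EBP1, EIF4EBP2 and EIF4G1 with siNOX4.

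**Figure D2:**
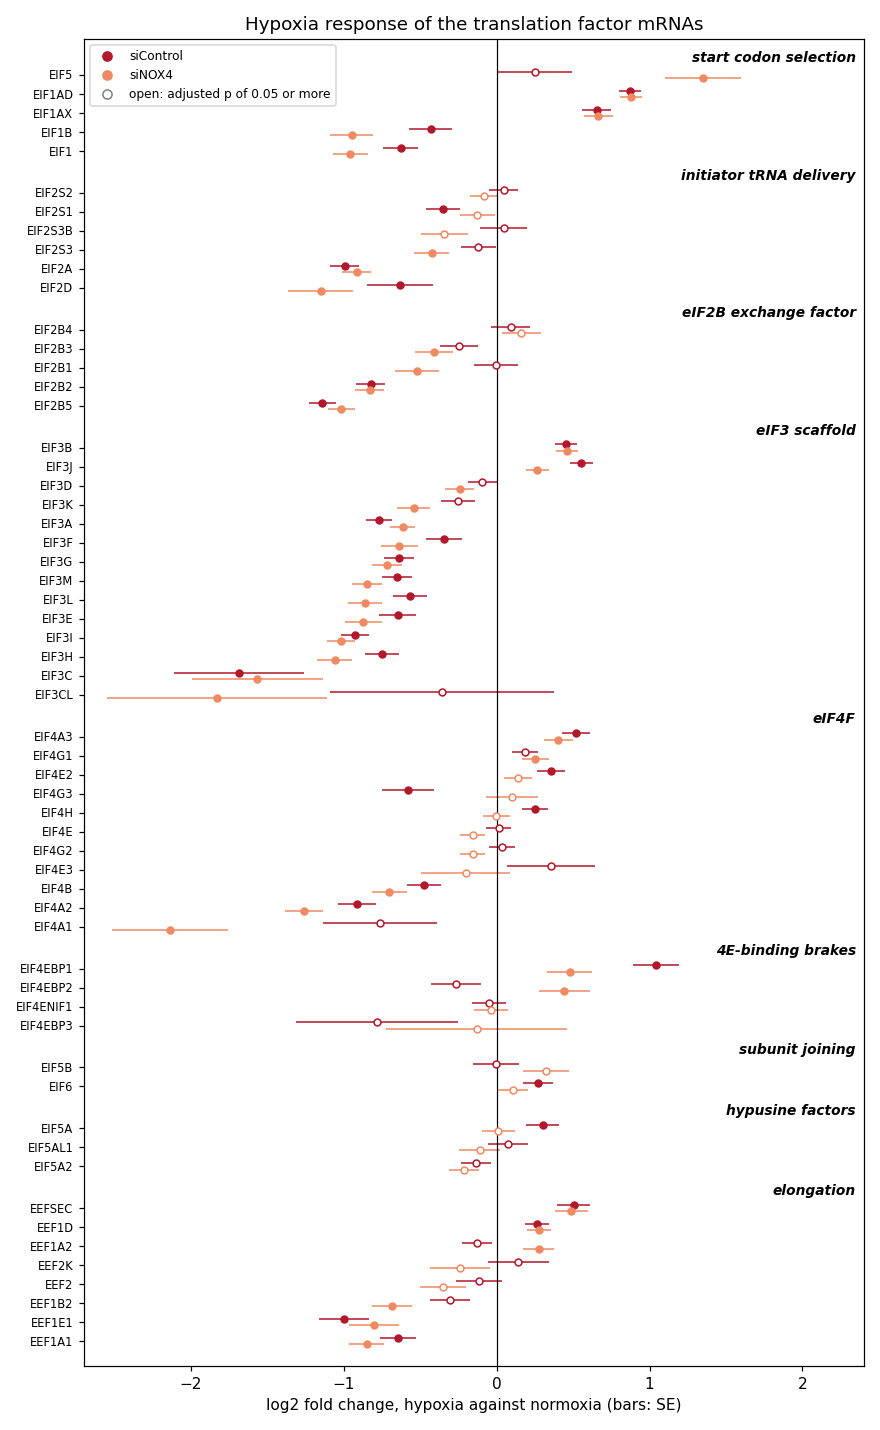
Log2 fold change of hypoxia against normoxia for the 58 tested factors, grouped by role (points: edgeR estimate, bars: SE; dark red, siControl; orange, siNOX4; filled points passed an adjusted p under 0.05). The eIF3 subunits lie to the left of 0 apart from EIF3B and EIF3J, and EIF5 lies at 1.35 with siNOX4 and 0.25 with siControl.

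Start codon selection parted into rising and falling factors. EIF1AD, an eIF1A-like protein, was 49.5, 48.6 and 46.6 CPM in siControl normoxia, 44.7, 46.7 and 49.2 in siNOX4 normoxia, 89.2, 89.8 and 86.3 in siControl hypoxia, with 83.2, 88.9 and 86.7 in siNOX4 hypoxia, so that every hypoxia library stood above every normoxia library. Its log2 fold change was 0.87 (SE 0.07, adjusted p = 1.8e-06) with siControl and 0.88 (SE 0.07, adjusted p = 1.68e-06) with siNOX4. EIF1AX, the X-linked copy of eIF1A, which supports scanning for the start codon, was 53.5, 53 and 60.1 CPM and 47.7, 47.9 and 53 CPM in siControl and siNOX4 normoxia and 90.3, 87.2 and 84.8 CPM and 68.7, 84.6 and 82.5 CPM in hypoxia, again without overlap. It rose by 0.65 (SE 0.10, adjusted p = 0.000122) and 0.67 (SE 0.10, adjusted p = 0.000102) on the log2 scale. EIF1, which guards the accuracy of start codon choice, went the other way. Its levels were 1277, 1815 and 1478 CPM in siControl normoxia, 1963, 1960.0 and 1848 in siNOX4 normoxia, 982, 971 and 1001 in siControl hypoxia, with 938, 1002 and 1031 in siNOX4 hypoxia. The log2 fold changes were −0.63 (SE 0.12, adjusted p = 0.00063) and −0.96 (SE 0.12, adjusted p = 2.74e-05). All hypoxia libraries were below all normoxia libraries. EIF1B, the close relative of EIF1, had 67.6, 104 and 77.4 CPM in siControl normoxia, 123, 121 and 105 in siNOX4 normoxia, 62.3, 57.3 and 64.8 in siControl hypoxia, with 54.4, 63.6 and 62.8 in siNOX4 hypoxia. It fell, at log2 fold changes of −0.43 (SE 0.14, adjusted p = 0.0194) with siControl and −0.95 (SE 0.14, adjusted p = 0.000119) with siNOX4, and again the hypoxia libraries were lower without overlap. With replicate 2 as the only siControl normoxia library, the siControl value of EIF1B was −0.76 (SE 0.11, adjusted p = 4.79e-06). The levels of EIF1 and EIF1B in siControl normoxia replicate 2 were the highest of its group, near those of siNOX4 normoxia.

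EIF5 (chr14:103333544-103345025 in GENCODE 29 on GRCh38), the GTPase-activating protein of eIF2, had widely spread siControl normoxia libraries, as did EIF4EBP2, EIF2B1 and EIF2S3. It was 251, 104 and 267 CPM in siControl normoxia replicates 1, 2 and 3, 88.7, 93.9 and 93.3 CPM in siNOX4 normoxia, 252, 254 and 234 CPM in siControl hypoxia, with 227, 235 and 242 CPM in siNOX4 hypoxia. Replicate 2 lay with the siNOX4 normoxia libraries, and replicates 1 and 3 lay at the level of the hypoxia libraries or above it. Hypoxia raised EIF5 with siNOX4 by 1.35 (SE 0.25, adjusted p = 0.000603), without overlap, while with siControl the change was 0.25 (SE 0.24, adjusted p = 0.408) and the groups overlapped. Without replicates 1 and 3, EIF5 rose with siControl as well, by 1.25 (SE 0.09, adjusted p = 1.04e-09) on the log2 scale.

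Among the factors of initiator tRNA delivery, 3 of the 6 genes fell with each siRNA and 0 rose. The alternative delivery factors EIF2A and EIF2D fell in both comparisons, and the third call was EIF2S1 with siControl and EIF2S3 with siNOX4. EIF2S3, the subunit of eIF2 that binds GTP and tRNA, was 295, 416 and 308 CPM in siControl normoxia, 437, 463 and 421 in siNOX4 normoxia, 313, 318 and 308 in siControl hypoxia, with 327, 343 and 313 in siNOX4 hypoxia. With siNOX4 the hypoxia libraries were below the normoxia libraries, at −0.43 (SE 0.12, adjusted p = 0.0077), and with siControl they overlapped, at −0.12 (SE 0.12, adjusted p = 0.407). EIF2S1, the subunit that carries the regulatory phosphorylation, fell, at −0.35 (SE 0.11, adjusted p = 0.0192) with siControl, and its value with siNOX4 was −0.13 (SE 0.11, adjusted p = 0.353). Leaving out siControl normoxia replicates 1 and 3 ended the call of EIF2S1, at −0.06 (SE 0.09, adjusted p = 0.612), and EIF2S3 was then called lower with siControl, at −0.41 (SE 0.08, adjusted p = 0.000344). EIF2S2, the remaining subunit, was at 0.04 (SE 0.09, adjusted p = 0.705) and −0.09 (SE 0.09, adjusted p = 0.445). EIF2A, which can bring initiator tRNA without eIF2, had group means of 177 ± 21.5 CPM (SD, n = 3) in siControl normoxia, 179 ± 2.82 in siNOX4 normoxia, 88.8 ± 6.67 in siControl hypoxia, with 94.5 ± 4.10 in siNOX4 hypoxia. It fell, at log2 fold changes of −0.99 (SE 0.10, adjusted p = 5.33e-06) and −0.92 (SE 0.10, adjusted p = 9.12e-06), with no overlap. EIF2D, also able to bring tRNA to the ribosome, fell, at log2 fold changes of −0.63 (SE 0.21, adjusted p = 0.0243) and −1.15 (SE 0.21, adjusted p = 0.000642), and its siControl normoxia libraries stood at 35.1, 73.7 and 39.8 CPM against 74.1, 79.6 and 68.5 with siNOX4. Its siControl value was −1.21 (SE 0.10, adjusted p = 1.07e-08) when replicates 1 and 3 of siControl normoxia were left out. EIF2S3B, the near copy of EIF2S3, did not pass the test in either comparison.

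Of the 5 genes of eIF2B, the exchange factor that recharges eIF2, 2 fell with siControl and 4 with siNOX4, and none was called higher with all libraries kept. EIF2B5, the catalytic subunit, had 94.2, 107 and 109.7 CPM in siControl normoxia, 89.8, 106 and 104 in siNOX4 normoxia, 46.2, 46.8 and 47.8 in siControl hypoxia, with 48.9, 47.6 and 51.2 in siNOX4 hypoxia. It fell, at log2 fold changes of −1.14 (SE 0.09, adjusted p = 9.96e-07) and −1.02 (SE 0.09, adjusted p = 2.35e-06). Every hypoxia library was below every normoxia library. EIF2B2, a regulatory subunit, fell, at log2 fold changes of −0.82 (SE 0.10, adjusted p = 1.95e-05) and −0.83 (SE 0.10, adjusted p = 1.82e-05). EIF2B1, also regulatory, was 67.4, 104 and 66.1 CPM in siControl normoxia replicates 1, 2 and 3, 105, 112 and 112 in siNOX4 normoxia, 80.6, 76.4 and 79.2 in siControl hypoxia, with 72.7, 81.7 and 74.7 in siNOX4 hypoxia. Its siControl replicate 2 was near the siNOX4 normoxia libraries and the others were lower than the hypoxia libraries, so that the siControl change was −0.01 and the siNOX4 change −0.52 (SE 0.14, adjusted p = 0.00779). EIF2B3 fell with siNOX4, at −0.41 (SE 0.12, adjusted p = 0.0132), and EIF2B4 was at 0.09 and 0.16 without a call. When replicates 1 and 3 of siControl normoxia were left out, EIF2B4 was called higher with siControl, at 0.41 (SE 0.13, adjusted p = 0.00919), and EIF2B1 lower, at −0.40 (SE 0.09, adjusted p = 0.000719).

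The eIF3 scaffold moved mostly downward. Of its 14 genes, 9 fell and 2 rose with siControl, and 12 fell and 2 rose with siNOX4, with median log2 fold changes of −0.60 and −0.78. EIF3I, the subunit with the highest level per length (355 ± 9.17 FPKM in siControl normoxia and 187 ± 6.14 FPKM in siControl hypoxia, SD, n = 3), had 606, 624 and 635 CPM in siControl normoxia, 679, 655 and 633 in siNOX4 normoxia, 314, 331 and 335 in siControl hypoxia, with 284, 336 and 349 in siNOX4 hypoxia. All hypoxia libraries were lower than all normoxia libraries, and its log2 fold change was −0.93 (SE 0.09, adjusted p = 5.75e-06) and −1.02 (SE 0.09, adjusted p = 2.59e-06). The large scaffold subunit EIF3A fell, at log2 fold changes of −0.77 (SE 0.08, adjusted p = 1.37e-05) and −0.62 (SE 0.08, adjusted p = 6.99e-05). EIF3H, EIF3E, EIF3M, EIF3G, EIF3L and EIF3F fell in both comparisons, between −0.34 and −0.75 with siControl and between −0.64 and −1.06 with siNOX4. EIF3D, which can bind the cap, and EIF3K, a small subunit of the complex, passed the test with siNOX4, at −0.24 (SE 0.10, adjusted p = 0.0458) and −0.54 (SE 0.11, adjusted p = 0.00115). EIF3K stood at 158, 176 and 177 CPM in siControl normoxia, 183, 180.0 and 174 in siNOX4 normoxia, 139.9, 145 and 146 in siControl hypoxia, with 98.8, 135 and 134 in siNOX4 hypoxia, and in siControl its value was −0.25 (SE 0.11, adjusted p = 0.0697). Against replicate 2 of siControl normoxia alone, EIF3D and EIF3K were also called lower with siControl, at −0.27 (SE 0.09, adjusted p = 0.0118) and −0.30 (SE 0.12, adjusted p = 0.0397), and EIF3F was at −0.61 (SE 0.10, adjusted p = 1.95e-05).

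EIF3B, a core subunit, and EIF3J, a loosely bound subunit at the decoding site, rose. EIF3B had group means of 170.4 ± 7.47, 173 ± 3.37, 234 ± 3.17 and 238 ± 9.01 CPM in siControl normoxia, siNOX4 normoxia, siControl hypoxia and siNOX4 hypoxia (SD, n = 3). The hypoxia libraries lay above the normoxia libraries, with log2 fold changes of 0.46 (SE 0.07, adjusted p = 0.000213) and 0.46 (SE 0.07, adjusted p = 0.000191). EIF3J changed by 0.55 (SE 0.08, adjusted p = 7.2e-05) and 0.27 (SE 0.08, adjusted p = 0.00945), also without overlap. EIF3C, a core subunit, and its near copy EIF3CL are less certain. EIF3C had 78.1, 168 and 66 CPM in siControl normoxia, 66.4, 119 and 71.9 in siNOX4 normoxia, 55.6, 17.7 and 23.8 in siControl hypoxia, with 30.4, 22.6 and 33.7 in siNOX4 hypoxia, and fell, at log2 fold changes of −1.69 (SE 0.43, adjusted p = 0.00527) and −1.57 (SE 0.43, adjusted p = 0.00758), the former becoming −2.38 with siControl normoxia replicates 1 and 3 left out. EIF3CL, at 4.78, 10.1 and 8.41 CPM in siControl normoxia, 9.15, 51.4 and 6.53 in siNOX4 normoxia, 3.69, 5.28 and 9.08 in siControl hypoxia, with 3.90, 12 and 2.90 in siNOX4 hypoxia, was called with siNOX4 at −1.83 (SE 0.72, adjusted p = 0.0456), although its groups overlapped and the call was lost without siNOX4 normoxia replicate 2, the library at 51.4 CPM. The groups of EIF3C did not overlap in either comparison.

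**Figure D3:**
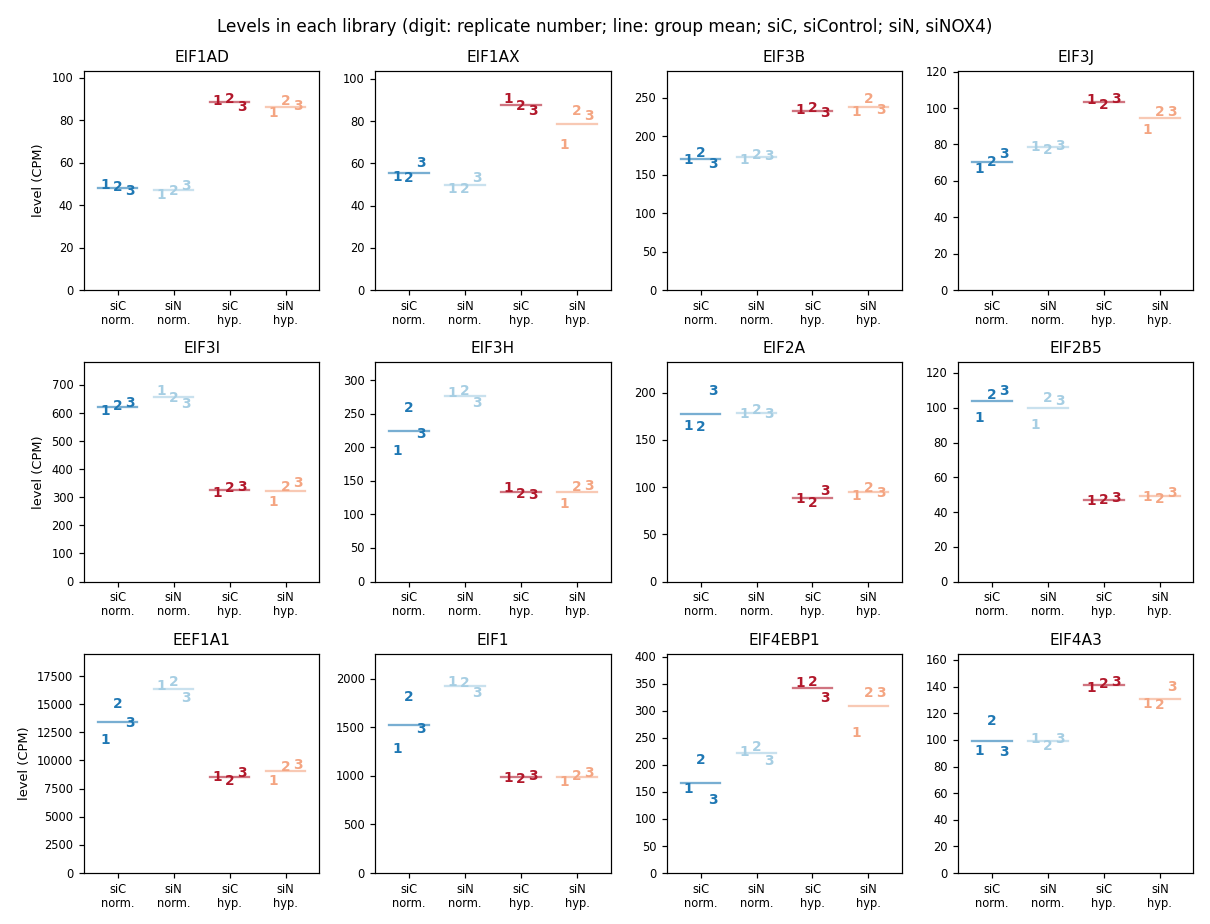
Levels in CPM (axes from 0) of 12 factors in each library, the digit giving the replicate and the line the group mean. For EIF1AD, EIF1AX, EIF3B, EIF3J and EIF4A3 the hypoxia libraries lie above the normoxia libraries, and for EIF3I, EIF3H, EIF2A, EIF2B5, EEF1A1 and EIF1 below them.

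Of the 11 tested genes of the eIF4F group, 3 rose and 3 fell with siControl, and 2 rose and 3 fell with siNOX4. EIF4A2, a DEAD-box helicase, fell from means of 481 ± 101 CPM and 630.5 ± 41 CPM in siControl and siNOX4 normoxia to 255 ± 3.62 CPM and 263 ± 6.02 CPM in hypoxia (SD, n = 3), at log2 fold changes of −0.91 (SE 0.12, adjusted p = 6.79e-05) and −1.26 (SE 0.12, adjusted p = 6.15e-06). EIF4A1, its close relative, was 12.6, 40.1 and 17.2 CPM in siControl normoxia, 79.7, 76.6 and 36.1 in siNOX4 normoxia, 13.7, 14.6 and 12.9 in siControl hypoxia, with 17.4, 13.1 and 13.2 in siNOX4 hypoxia. Its log2 fold change of −2.14 (SE 0.38, adjusted p = 0.000458) with siNOX4 was the lowest of any factor, and with siControl it was −0.77 (SE 0.37, adjusted p = 0.103). The siControl value was called lower, at −1.55 (SE 0.27, adjusted p = 6.61e-05), when replicates 1 and 3 of siControl normoxia were left out. Its counts are among the uncertain ones above. EIF4A3, a helicase that sits in the exon junction complex, rose by 0.52 (SE 0.09, adjusted p = 0.000586) and 0.40 (SE 0.09, adjusted p = 0.00299). EIF4B, which stimulates the helicase, fell, at log2 fold changes of −0.48 (SE 0.11, adjusted p = 0.00378) and −0.70 (SE 0.11, adjusted p = 0.000249). In the fit without siControl normoxia replicates 1 and 3 the siControl values were 0.31 (SE 0.09, adjusted p = 0.00472) for EIF4A3 and −0.76 (SE 0.08, adjusted p = 1.94e-07) for EIF4B. EIF4H, which like EIF4B stimulates the helicase, had the highest FPKM of this group (125 ± 1.95 in siControl hypoxia, SD, n = 3) and stood at 306, 373 and 341 CPM in siControl normoxia, 383, 374 and 355 in siNOX4 normoxia, 406, 411 and 398 in siControl hypoxia, with 354, 387 and 368 in siNOX4 hypoxia. It rose with siControl by 0.25 (SE 0.09, adjusted p = 0.0277), a call lost when siControl normoxia replicate 1 or 3, or any of the 3 siControl hypoxia libraries, was left out (log2 fold change 0.12 without replicates 1 and 3). EIF4E, the cap-binding protein, did not pass the test in either comparison, at log2 fold changes of 0.01 and −0.16. Its relative EIF4E3 and the scaffold EIF4G2 were called in neither comparison as well. EIF4E2, its homologue that the hypoxia-inducible factor HIF2 is known to use, rose with siControl by 0.36 (SE 0.09, adjusted p = 0.00568) and was at 0.14 (SE 0.09, adjusted p = 0.217) with siNOX4. The scaffold EIF4G1 rose with siNOX4 by 0.25 (SE 0.09, adjusted p = 0.0241), and EIF4G3, another scaffold, fell with siControl, at −0.58 (SE 0.17, adjusted p = 0.0115), where its libraries were 287, 170.3 and 318 CPM in siControl normoxia, 156, 159.8 and 172 in siNOX4 normoxia, 173, 166 and 178 in siControl hypoxia, with 182, 169.6 and 171 in siNOX4 hypoxia. Replicates 1 and 3 of siControl normoxia stood above all other libraries, and without them the siControl value of EIF4G3 was 0.02 (SE 0.09, adjusted p = 0.869). EIF4G1 was then called higher with siControl too, at 0.34 (SE 0.08, adjusted p = 0.00203).

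Of the 4 genes of the 4E-binding brakes, 1 rose with siControl and 2 with siNOX4, and 0 fell. The shares of all genes called higher were 25.7% and 28.8%. Both siNOX4 calls, EIF4EBP1 and EIF4EBP2, were lost in at least 1 fit with a library left out. EIF4EBP1, which sequesters the cap-binding protein when it is not phosphorylated (chr8:38030341-38060365), was 155, 209.9 and 135 CPM in siControl normoxia, 223, 233 and 208 in siNOX4 normoxia, 352, 353 and 324 in siControl hypoxia, with 258, 334 and 332 in siNOX4 hypoxia. The hypoxia libraries were above the normoxia libraries in both pairs, and it rose by 1.04 (SE 0.15, adjusted p = 0.000101) with siControl and 0.48 (SE 0.15, adjusted p = 0.0151) with siNOX4. Without siControl normoxia replicates 1 and 3, its rise with siControl was 0.71. Per length, the level ratio of EIF4EBP1 to EIF4E was 46.7 ± 12 in siControl normoxia, 59.7 ± 3.39 in siNOX4 normoxia, 95.0 ± 5.36 in siControl hypoxia and 92.5 ± 7.69 in siNOX4 hypoxia (SD, n = 3). EIF4EBP2, its relative, rose with siNOX4 by 0.44 (SE 0.17, adjusted p = 0.0385), while with siControl it stood at −0.27 (SE 0.17, adjusted p = 0.194). Its libraries were 112, 63.3 and 112 CPM in siControl normoxia, 57.8, 56.8 and 63.3 in siNOX4 normoxia, 82.1, 80.2 and 77 in siControl hypoxia, with 81.8, 81 and 78.6 in siNOX4 hypoxia. Replicates 1 and 3 of siControl normoxia were thus above all hypoxia libraries, and without them EIF4EBP2 rose with siControl by 0.33 (SE 0.09, adjusted p = 0.00429). EIF4ENIF1, which shuttles eIF4E into the nucleus, and EIF4EBP3 did not pass the test.

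Among the factors of subunit joining and the hypusine-carrying factors, EIF6 and EIF5A rose with siControl and 0 were called with siNOX4. EIF6, which keeps the ribosomal subunits apart, had 284, 285 and 249 CPM in siControl normoxia, 287, 258 and 273 in siNOX4 normoxia, 329, 329 and 328 in siControl hypoxia, with 254, 316 and 309 in siNOX4 hypoxia, and rose by 0.27 (SE 0.10, adjusted p = 0.0331) with siControl. EIF5A, which carries the modified residue hypusine and is known to ease translation through difficult sequences, had 602, 619.7 and 609 CPM, 698, 626 and 647 CPM, 750.0, 770.3 and 735 CPM and 539, 735 and 711 CPM in the same order of groups and rose by 0.30 (SE 0.11, adjusted p = 0.0347) with siControl. Both calls were lost when siControl normoxia replicate 3 or any siControl hypoxia library was left out, and that of EIF5A also without siControl normoxia replicate 1. With replicates 1 and 3 both left out, EIF6 was at 0.21 (SE 0.11, adjusted p = 0.1) and EIF5A at 0.28 (SE 0.13, adjusted p = 0.0681). With siNOX4, EIF6 was at 0.11 (SE 0.10, adjusted p = 0.372) and EIF5A at 0.01 (SE 0.11, adjusted p = 0.944). EIF5B, the GTPase that joins the subunits, was at −0.01 (SE 0.15, adjusted p = 0.98) and 0.32 (SE 0.15, adjusted p = 0.0867) in the siControl and siNOX4 comparisons. Against siControl normoxia replicate 2 alone, EIF5B was called higher with siControl, at 0.46 (SE 0.11, adjusted p = 0.00155). EIF5A2 and EIF5AL1, relatives of EIF5A, were called in neither.

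Of the 8 tested elongation genes, 2 rose and 2 fell with siControl, and 3 rose and 3 fell with siNOX4. EEF1A1 (chr6:73515750-73523797), the most abundant factor per length (2219.7 ± 278 FPKM in siControl normoxia and 1419 ± 60.5 FPKM in siControl hypoxia, SD, n = 3), stood at 11797, 15043 and 13326 CPM in siControl normoxia, 16623, 16935 and 15543 in siNOX4 normoxia, 8545, 8204 and 8914 in siControl hypoxia, with 8148, 9459 and 9595 in siNOX4 hypoxia. All hypoxia libraries were below all normoxia libraries, and it fell, at log2 fold changes of −0.65 (SE 0.12, adjusted p = 0.000563) and −0.85 (SE 0.12, adjusted p = 7.01e-05). EEF1B2, a subunit of the eEF1A exchange factor, fell with siNOX4, at −0.69 (SE 0.13, adjusted p = 0.000776). EEF1E1, a scaffold protein of the aminoacyl-tRNA synthetase complex, was 9.03, 8.23 and 10.6 CPM in siControl normoxia, 6.93, 7.92 and 8.95 in siNOX4 normoxia, 4.85, 5.07 and 4.03 in siControl hypoxia, with 4.47, 4.94 and 4.23 in siNOX4 hypoxia. It fell, at log2 fold changes of −1.0 (SE 0.16, adjusted p = 0.000287) and −0.80 (SE 0.17, adjusted p = 0.00133). EEF2 did not pass the test, and its log2 fold change was −0.12 (SE 0.15, adjusted p = 0.536) and −0.35 (SE 0.15, adjusted p = 0.0637), with libraries of 3630.5, 5822 and 3883 CPM in siControl normoxia, 6298, 6264 and 5699 in siNOX4 normoxia, 4145, 4001 and 4157 in siControl hypoxia, with 4871, 4857 and 4608 in siNOX4 hypoxia. Without siControl normoxia replicates 1 and 3 it fell with siControl, at −0.51 (SE 0.09, adjusted p = 0.000128). EEF1D, another exchange subunit, rose by 0.27 (SE 0.08, adjusted p = 0.0116) and 0.28 (SE 0.08, adjusted p = 0.00849), and EEFSEC, which delivers selenocysteine, by 0.50 (SE 0.11, adjusted p = 0.00184) and 0.49 (SE 0.11, adjusted p = 0.00217). EEF2K, the kinase that inhibits eEF2, was at 0.14 (SE 0.20, adjusted p = 0.579) and −0.24 (SE 0.20, adjusted p = 0.318), and was called lower with siControl, at −0.39 (SE 0.13, adjusted p = 0.0135), when replicates 1 and 3 of siControl normoxia were left out. The same held for EEF1B2, at −0.48 (SE 0.13, adjusted p = 0.00329).

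The ratio of close relatives differed between pairs. Per length, the FPKM level of EEF1A1 was 225 ± 29.1 times that of EEF1A2, its muscle and nerve form, in siControl normoxia, 330.1 ± 46.6 in siNOX4 normoxia, 157 ± 3.42 in siControl hypoxia and 149.6 ± 9.82 in siNOX4 hypoxia (mean ± SD of the ratio, n = 3). The FPKM ratio of EIF4A2 to EIF4A3 was 3.92 ± 0.349, 5.17 ± 0.46, 1.46 ± 0.0251 and 1.63 ± 0.126 in the same order. In these pairs of relatives the ratio was lower in the hypoxia groups than in the normoxia groups. The FPKM ratio of EIF1 to EIF1B stayed closer together, at 9.75 ± 0.482, 8.75 ± 0.483, 8.47 ± 0.415 and 8.70 ± 0.396. EEF1A2 itself rose with siNOX4 by 0.27 (SE 0.10, adjusted p = 0.032) and stood at −0.13 (SE 0.10, adjusted p = 0.291) with siControl.

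The factors with a pyrimidine tract at the start moved more uniformly than those without. Of the 13 tested factors with the tract, 0 rose and 7 fell with siControl, and 0 rose and 11 fell with siNOX4, where edgeR gave 12 and 13 negative values, with medians of −0.34 and −0.69. Of the 35 tested factors matched to a start without a tract, 10 rose and 9 fell with siControl, and 9 rose and 10 fell with siNOX4, with medians of 0.01 and −0.11. Without siControl normoxia replicates 1 and 3, 12 of the 13 fell with siControl, and all 13 fell with siNOX4. The tract was chosen after the values had been seen and no test was made of it. Of the 11273 tested genes with a match, 7.17% had the tract, and of those 808 genes 333 fell and 179 rose with siNOX4 (median −0.21), against 2914 and 3218 of the 10465 without it (median 0.06). Ribosomal protein genes with the tract (43) had 0 rises and 39 falls with siNOX4 (median −0.88), and with siControl 0 rises and 19 falls, or 39 falls without replicates 1 and 3. Other genes with the tract (752, neither factors nor ribosomal protein genes) had 283 falls and 179 rises with siNOX4, with a median of −0.15. With siControl they had 256 falls and 173 rises (median −0.08). Of all 808 genes with the tract, 282 fell and 173 rose with siControl (median −0.11), against 2990 and 2888 of the 10465 without it (median 0.01). Another 10 factors had no start in the table, EIF3G, EEF1A2, EIF3CL, EIF3A, EIF2S2, EEF1D, EIF3E, EIF3L, EIF3H and EIF4EBP1, and are not sorted. Of these 10, 2 rose and 5 fell with siControl (median −0.46), and 3 rose and 6 fell with siNOX4 (median −0.67).

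**Figure D4:**
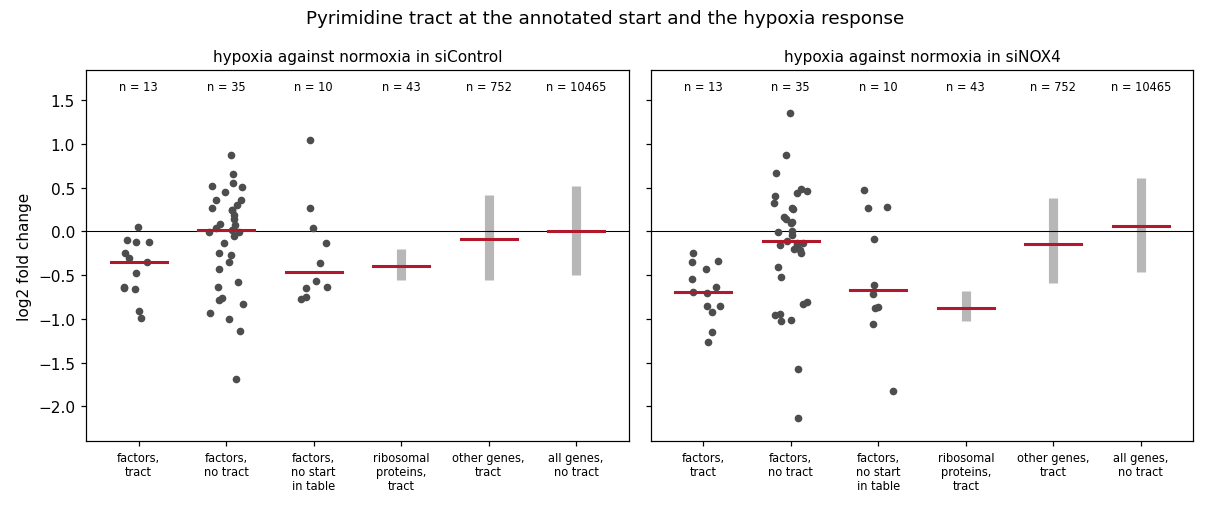
Log2 fold change of hypoxia against normoxia for factors with a pyrimidine tract at the annotated start, factors without one, factors not matched, and 3 sets of other genes (points: single factors; grey bars: the middle 50% of genes; red lines: medians). With siNOX4 the 13 factors with the tract lie between −1.26 and −0.24, and the ribosomal protein genes with the tract have a median of −0.88.

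The siNOX4 comparison in normoxia asks whether silencing NOX4 changed these mRNAs without hypoxia. It shares its siControl and its siNOX4 normoxia libraries with the hypoxia comparisons. Here 6 factors were higher (EIF1B, EIF2B1, EIF2S3, EIF3L, EIF4A1, EIF4B) and 3 lower (EIF5, EIF4EBP2, EIF4G3), 15.5% of those tested, against 15% of all genes (3.97% higher and 11% lower). The log2 fold changes ran from −0.67 to −1.17 among the lower factors and were 0.49 (SE 0.14, adjusted p = 0.0397) for EIF1B, 0.47 (SE 0.14, adjusted p = 0.0461) for EIF2B1 and 1.46 (SE 0.37, adjusted p = 0.0318) for EIF4A1. EIF2S3, EIF3L and EIF4B stood between 0.37 and 0.38. None of the 9 calls remained without siControl normoxia replicates 1 and 3, when 0 factors were called, 0.0405% of all genes higher and 0.0232% lower. Calls varied with the library left out: 0 higher and 0 lower without siControl normoxia replicate 1 or 3, and 25 higher and 8 lower without siControl normoxia replicate 2. The latter fit kept only replicates 1 and 3 in that group, and its share of all genes is not given here. Leaving out any siNOX4 normoxia or siControl hypoxia library, or siNOX4 hypoxia replicate 2 or 3, also gave 0 in each direction. Groups did not overlap for 19 factors, against 22.4% of all genes, 25 factors had an unadjusted p under 0.05, and the calls of at least 2-fold, EIF5 and EIF4A1, stand beside 5.59% of all genes. The authors' deposited table called 1 factor higher, EIF4A1 (log2 fold change 1.46), and 1 lower, EIF5 (−1.17), in normoxia. It called 706 of the 29849 genes with an adjusted p in this comparison.

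Since no call remained without replicates 1 and 3 of siControl normoxia, the place of the siControl libraries was described on the scale from the siNOX4 normoxia mean (0%) to the siNOX4 hypoxia mean (100%), over the 39 factors called with siNOX4. The median factor stood at 48.2% in replicate 1, at 9.4% in replicate 2 and at 34.6% in replicate 3, beside 36.0%, 6.5% and 26.0% over all 9776 called genes. Past the midpoint of 50% lay 19, 2 and 12 of the 39 factors, 48.7%, 5.1% and 30.8%, against 40.8%, 6.4% and 35.4% of all called genes. The siControl hypoxia libraries had medians of 103.7%, 106.6% and 102.8%. The place differed between factors: EIF5 stood at 107.3% and 114.0% in replicates 1 and 3 and EIF2D at 93.3% and 77.5%, while EIF3I stood at 10.9% and 4.3% and EIF1AD at 9.1% and −0.9%.

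**Figure D5:**
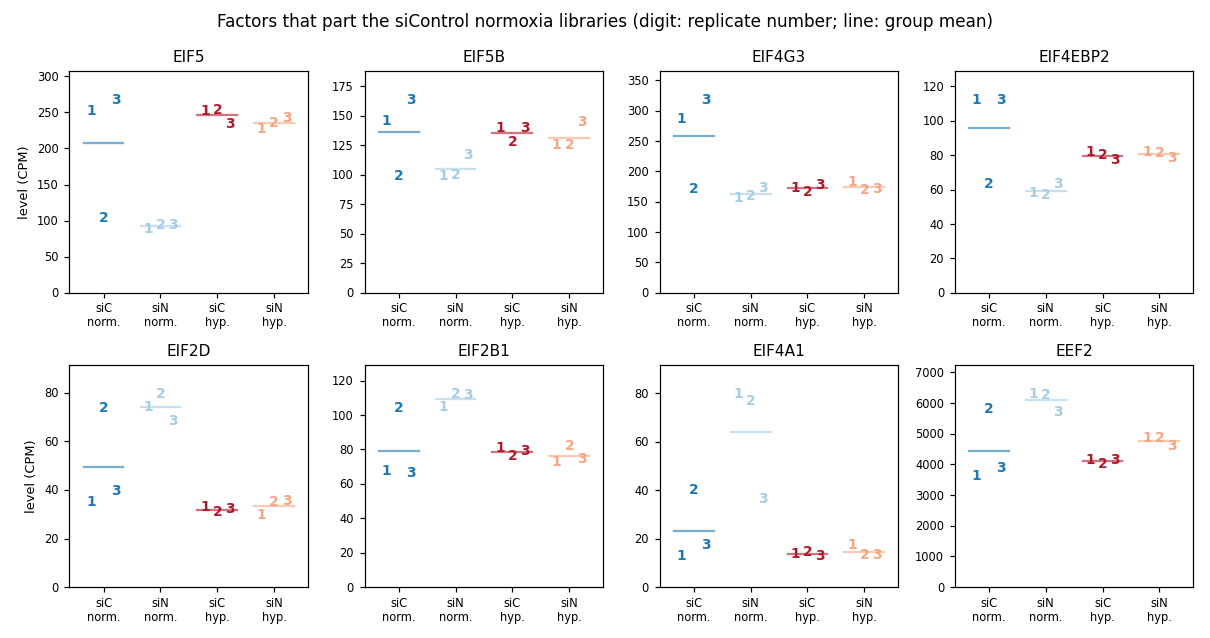
Levels in CPM (axes from 0) of 8 factors by library (digit: replicate; line: group mean). For EIF5, EIF4G3 and EIF4EBP2, siControl normoxia replicates 1 and 3 lie far above replicate 2, and for EIF2D, EIF2B1 and EEF2 they lie below it.

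In hypoxia, siNOX4 against siControl asks whether the knockdown changed the factors at low oxygen, and edgeR called 0 of the 58 factors, as it did 0% of all genes. DESeq2 and limma-voom also called 0, and 0 factors had an unadjusted p under 0.05. In these fits a single estimate of the spread per gene came from all 12 libraries. The wide siControl normoxia group (biological coefficient of variation 31.7%) thus entered it, although this comparison does not use that group. The lack of calls does not show that the knockdown had no effect. The part of the siControl normoxia group in that lack was not tested. The largest difference of a factor was −0.38 for EIF4E3, a low-level cap-binding relative (SE 0.29), and EIF3K, with the smallest p, was at −0.23 (SE 0.11). The authors' deposited table called 1 factor, EEF2, higher in siNOX4 hypoxia (log2 fold change 0.22, adjusted p = 0.0128 in that table), where the libraries were 4145, 4001 and 4157 CPM with siControl and 4871, 4857 and 4608 CPM with siNOX4 and edgeR gave 0.22 with adjusted p = 1.00. The authors' table called 45 of the 30230 genes with an adjusted p in this comparison. Groups did not overlap for 14 factors, against 16.6% of all genes.

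The interaction asks whether the response to hypoxia differed between the siRNAs. It was called for 0 of the 58 factors (0% of all genes), also with DESeq2 and limma-voom, and 9 factors had an unadjusted p under 0.05. The smallest p belonged to EIF5, whose response with siNOX4 exceeded that with siControl by 1.10 (SE 0.35, adjusted p = 0.204). Leaving out siControl normoxia replicate 2 kept only replicates 1 and 3 in that group, the libraries that differed from it. In that fit, 6 factors had a more positive and 21 a more negative response with siNOX4. Among them were EIF5 (1.42), EIF4EBP2 (0.93), EIF4G3 (0.91), EIF2D (−0.92) and EIF4A1 (−2.01). Without replicates 1 and 3 instead, 0 were called, at 0.0116% of all genes higher and 0% lower. With no filter on low counts, 3 were called in each direction. Shares of all genes are given neither for the unadjusted p nor for the fits without replicate 2 and with no filter. Those counts are therefore not set against all genes.

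The authors' deposited table called 9 factors higher and 17 lower for hypoxia with siControl, and 13 higher and 28 lower with siNOX4, at an adjusted p under 0.05. Of the 58 factors and all genes with an adjusted p there, it called 7490 of 30743 genes in either direction with siControl. With siNOX4 it called 10787 of 30263 genes. The sources used here do not name the tool behind these tests.

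Other genes of the pathway were taken from lists of textbook members. Of the 6 genes of the eIF2 kinases and the eIF2 phosphatase subunits, 4 fell in both hypoxia comparisons. EIF2AK3 (PERK), the kinase of the endoplasmic reticulum, fell, at log2 fold changes of −1.82 (SE 0.16, adjusted p = 2.14e-06) and −1.39 (SE 0.16, adjusted p = 1.54e-05), EIF2AK2 (PKR), activated by double-stranded RNA, at −0.83 (SE 0.09, adjusted p = 8.9e-06) and −0.68 (SE 0.09, adjusted p = 3.97e-05), and EIF2AK1 (HRI), the heme-regulated kinase, at −0.52 (SE 0.07, adjusted p = 6.29e-05) and −0.59 (SE 0.07, adjusted p = 2.49e-05). PPP1R15B, which targets the phosphatase to eIF2, fell, at log2 fold changes of −0.60 (SE 0.09, adjusted p = 0.000146) and −0.44 (SE 0.09, adjusted p = 0.00114). PPP1R15A, its stress-induced relative, rose with siNOX4 by 0.29 (SE 0.10, adjusted p = 0.0232). In the fit without siControl normoxia replicates 1 and 3, PPP1R15A was called higher with siControl as well, at 0.39 (SE 0.09, adjusted p = 0.00133). EIF2AK3 was at −1.43 with siControl in that fit. EIF2AK4 (GCN2), activated by uncharged tRNA, did not pass. Of the 14 regulators of eIF4F, 5 rose and 4 fell with siControl and 2 rose and 3 fell with siNOX4. DDX3X, a helicase, fell, at log2 fold changes of −0.71 (SE 0.10, adjusted p = 0.000127) and −0.52 (SE 0.10, adjusted p = 0.00112), and so did DHX29, a helicase that helps scanning through structured leaders, at −0.34 (SE 0.10, adjusted p = 0.0151) and −0.65 (SE 0.10, adjusted p = 0.000222). PAIP2B, an inhibitor of the poly(A)-binding protein, fell, at −0.86 (SE 0.19, adjusted p = 0.00227) and −1.01 (SE 0.19, adjusted p = 0.000646). MKNK1, a kinase of eIF4E, fell with siControl, at −0.65 (SE 0.16, adjusted p = 0.00356), and was at −0.16 (SE 0.16, adjusted p = 0.393) with siNOX4. Against siControl normoxia replicate 2 alone, 2 of the 14 were called higher and 4 lower with siControl, DDX3X was at −0.45 (SE 0.09, adjusted p = 0.000161), and the call of MKNK1 was lost, at −0.15 (SE 0.11, adjusted p = 0.258). LARP1, which binds the TOP tract, was 287, 495 and 266 CPM in siControl normoxia replicates 1, 2 and 3, and 510.4, 497 and 498 CPM in siControl hypoxia. It was called higher with siControl, at 0.52 (SE 0.18, adjusted p = 0.0269), a call that was lost without replicates 1 and 3, at 0.02 (SE 0.09, adjusted p = 0.86), and it was called neither way with siNOX4 (adjusted p = 0.994). LARP1, PPP1R15A, PPP1R15B and EIF2AK4 are named after their values had been seen.

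Enzymes that modify the elongation factors gave a mixed picture. Of the 5 methyltransferases of the elongation factors, 3 rose and 0 fell in each comparison, EEF2KMT by 0.93 (SE 0.22, adjusted p = 0.00326) and 0.78 (SE 0.22, adjusted p = 0.0104) and EEF1AKMT1 by 0.71 (SE 0.25, adjusted p = 0.0289) and 0.99 (SE 0.26, adjusted p = 0.00655), while EEF1AKMT3 rose with siControl (log2 fold change 0.95) and METTL13 with siNOX4 (0.77). Leaving out siControl normoxia replicates 1 and 3 ended the siControl call of EEF1AKMT3, at 0.34 (SE 0.16, adjusted p = 0.0809), and gave one of METTL13, at 0.88 (SE 0.12, adjusted p = 4.96e-06), while EEF2KMT was at 1.59 (SE 0.25, adjusted p = 1.95e-05). Of the 2 enzymes of hypusine synthesis, DOHH, the hydroxylase, rose by 0.60 (SE 0.09, adjusted p = 0.00021) and 0.79 (SE 0.10, adjusted p = 2.65e-05), and DHPS, the synthase, fell with siNOX4, at −0.91 (SE 0.30, adjusted p = 0.0223), and in the fit without these libraries with siControl also, at −0.90 (SE 0.16, adjusted p = 0.000105). Of the 7 genes of diphthamide synthesis, which modifies eEF2, 2 rose and 2 fell with siControl and 0 rose and 2 fell with siNOX4. DPH1 and DPH6 rose with siControl by 1.08 (SE 0.23, adjusted p = 0.00157) and 1.5 (SE 0.34, adjusted p = 0.00258), and were at 0.50 (SE 0.11, adjusted p = 0.000876) and 0.63 (SE 0.22, adjusted p = 0.0196) when siControl normoxia replicates 1 and 3 were left out. DNAJC24, a J-domain protein of the pathway, fell, at log2 fold changes of −0.29 (SE 0.11, adjusted p = 0.0379) and −0.55 (SE 0.11, adjusted p = 0.000905), the former without a call in that fit (adjusted p = 0.0768), and DPH3 fell with siNOX4, at −0.28 (SE 0.11, adjusted p = 0.0454). Of the 8 genes of termination and recycling, 1 rose and 4 fell with siControl and 1 rose and 3 fell with siNOX4. HBS1L, a rescue factor of stalled ribosomes, fell, at log2 fold changes of −0.87 (SE 0.11, adjusted p = 3.98e-05) and −1.12 (SE 0.11, adjusted p = 5.92e-06), and ETF1, the release factor, at −0.45 (SE 0.10, adjusted p = 0.00288) and −0.26 (SE 0.10, adjusted p = 0.046). The siControl call of ETF1 was lost, at −0.21 (SE 0.09, adjusted p = 0.0531), in the fit without siControl normoxia replicates 1 and 3. MCTS1, the partner of DENR, fell with siNOX4, at −0.57 (SE 0.15, adjusted p = 0.00733), and with siControl in that fit only, at −0.49 (SE 0.14, adjusted p = 0.00491). DENR, which recycles the small subunit, rose by 0.78 (SE 0.08, adjusted p = 8.66e-06) and 0.43 (SE 0.08, adjusted p = 0.000655). Of the 2 genes that release EIF6 from the large subunit, EFL1 fell, at log2 fold changes of −0.82 (SE 0.12, adjusted p = 0.00012) and −0.41 (SE 0.12, adjusted p = 0.0111), the former −0.50 (SE 0.10, adjusted p = 0.000256) in that fit, while the other was not called.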

How the data were processed

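Total RNA from 12 BCPAP libraries was sequenced after a TruSeq RNA preparation, per the labels' protocols. The deposited table gives raw read counts per gene, FPKM values (scaled to gene length and library size) computed by the authors, and their log2 fold changes with p-values for 4 comparisons, per the file headers. Bowtie 0.12.2 and the mouse builds mm8 and mm9 are listed, with no role, in the submitters' processing notes. The sources used here name neither the counter nor the authors' test. All 58735 genes have the positions of GENCODE 29 (GRCh38). The preparation was taken as not keeping strand, so antisense reads cannot be told apart.

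Counts were scaled by TMM (factors 0.903 to 1.09), filtered with filterByExpr to 17277 genes and tested with edgeR 4.0.16 (quasi-likelihood F test, 1 mean per group, all 12 libraries, Benjamini-Hochberg adjustment over all genes tested) in R 4.3.3. The SE of a log2 fold change is its size divided by the square root of F. Alternatives used DESeq2 1.42.0, limma-voom (limma 3.58.1), other scalings and filters, a replicate block, and left-out libraries. The code was tested on simulated data, where it called 52% of the 200 genes given a 2-fold change. Genes without a call may thus have changed.

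The p-values measure the spread between these libraries, and depth limits low genes such as NOX4. The members and gene lists were chosen with earlier results of these data known. Values in every library are given for the 3 largest called changes in each direction of each called comparison (mean of at least 5 CPM), the smallest p of the others, and the highest FPKM of each role. Of the other pathway lists, up to 3 called genes with the smallest p in each hypoxia comparison were named, beside those marked as chosen after their values were seen. Some marker genes are not reported here.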

Additional observations from a re-analysis of the deposited data

How the results depend on the processing

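The hypoxia counts were within 1.5 times under every other scaling, filter and tool run. Leaving out 1 library at a time gave 8 to 15 factors higher and 17 to 24 lower with siControl, and 8 to 13 higher and 24 to 32 lower with siNOX4. The siNOX4 counts in normoxia (6 higher, 3 lower) ran from 0 to 25 higher and from 0 to 8 lower, those in hypoxia stayed at 0, and the interaction ran from 0 to 6 higher and from 0 to 21 lower. Every highest value of the normoxia comparison and the interaction came without siControl normoxia replicate 2. In normoxia, 14 were higher with no filter on low counts and 15 with DESeq2, while limma-voom, a fit of the compared groups alone, and the fit without siControl normoxia replicates 1 and 3 gave 0 higher and 0 lower. With no filter the interaction was called for 3 higher and 3 lower. Shares of all genes are not given for the fits with no filter, with DESeq2 or with 1 library left out. Those counts are therefore not set against all genes. The cause of these shifts was not tested. Leaving out replicates 1 and 3, and scaling without the factors, were chosen after seeing the data.

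Without siControl normoxia replicates 1 and 3, the hypoxia values of 9 of the 58 factors with siControl changed sign, 13 gained a call and 5 lost one, against 0, 6 and 0 with siNOX4. EIF2B1 ran from −0.12 to 0.24 with 1 library left out, the highest (adjusted p = 0.00872) without siControl normoxia replicate 2. Without replicates 1 and 3, EIF4EBP2 went from −0.27 to 0.33 (adjusted p = 0.00429) and EIF4G3 from −0.58 to 0.019 (adjusted p = 0.869). The upper-quartile scaling moved the median of all genes to 0.11 in both hypoxia comparisons.

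Same-numbered samples shared little of their deviations, with correlations from −0.026 to 0.15. Such values cannot decide whether the samples were paired. With the replicate block the factors called were 12 higher and 21 lower for hypoxia with siControl (25.6% and 26.8% of all genes), 13 and 27 with siNOX4 (28.5% and 27.6%), 8 and 3 for siNOX4 in normoxia (5.06% and 10.1%), and 0 for siNOX4 in hypoxia and for the interaction.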
